A study of Mus musculus with 2 samples.

Results

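Chromatin accessibility was described at 10 genes that mark Müller glia: Rlbp1, Slc1a3, Glul, Aqp4, Kcnj10, Vim, Gfap, Dkk3, Apoe and Clu. A peak was assigned to a gene when its summit, the position with the highest signal, lay in the gene body or within 50 kb on either side (mm10, GENCODE annotation). This gave 144 of the 117165 control peaks and 156 of the 124935 Ngn3-OE peaks, and no peak fell into the windows of more than 1 of the 10 genes. Distances to a gene are given from the nearest start site of its transcripts in the GENCODE basic set.

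The peaks came from ATAC-seq, in which the Tn5 transposase inserts sequencing adapters into DNA that is not packed in nucleosomes. Late retinal progenitor cells (RPCs) of mouse pups received by in vivo electroporation, on postnatal day 1, either a GFP-marked control plasmid or one that also drove Neurog3 (Ngn3-OE), and GFP-positive cells were collected by FACS at day 2 thereafter. The control and Ngn3-OE groups had 1 library each, made from 50000 sorted cells, so no difference below has a replicate check and no p-value is given. Strain and sex of the pups were not given in the sources used here, and a sorted population can mix progenitors with their early progeny. Fewer cells with an open site and less opening per cell therefore cannot be told apart. The transgene was visible in the peaks: no control peak lay within 10 kb of Neurog3, whereas 1 Ngn3-OE peak did, with 1591 tags at its summit.

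Müller glia are the main glial cells of the vertebrate retina and span its whole thickness. They clear glutamate and potassium from the extracellular space, move water, recycle visual chromophore and give structural support to neurons. They arise last from the same late RPCs that produce rods and bipolar cells, and RPCs and young glia share many expressed genes, including members of the SOX transcription factor family. Distal elements (enhancers) are often open in few cell types, whereas start sites are often open in many.

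All 10 genes had a start-site peak in control and 9 of them, all but Aqp4, in Ngn3-OE late RPCs, while a small number of strong elements inside or near Slc1a3, Kcnj10, Dkk3, Aqp4, Rlbp1 and Vim were much less accessible or were not called. For each peak the number of tags over its summit (the pileup) was used as its level. Of the 144 control peaks, 23 overlapped no Ngn3-OE peak (16.0%, 95% Wilson interval 10.9 to 22.8), against 21.7% of all control peaks. Of the 156 Ngn3-OE peaks, 33 overlapped no control peak (21.2%, 15.5 to 28.2), against 26.6% of all Ngn3-OE peaks. Both shares lay below those of all peaks, and both intervals held the share of all peaks. The shares were not matched for peak strength. The median pileup at the 10 genes was 13.5 tags in control and 12.5 in Ngn3-OE, against 9 in both over all peaks. All intervals in the text cover counting error only.

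Shared peaks were compared as pairs, each control peak with the Ngn3-OE peak that it overlapped most. A pair was used when both peaks together had at least 20 tags, and its ratio was divided by 1.077, the median ratio of Ngn3-OE to control over all 55013 such pairs. The 10 genes held 98 pairs. Of these, 11 were at least 2-fold lower in Ngn3-OE (11.2%, 6.38 to 19.0), against 5.79% of all pairs. Only 3 pairs were at least 2-fold higher (3.06%, 1.05 to 8.62), against 3.84% of all pairs. The median log2 ratio of the 98 pairs was −0.08, so the lower pairs formed a tail beside pairs near the median of all peaks (plot of control against Ngn3-OE pileups). With the libraries scaled by their lowest backgrounds instead, 9 pairs were lower and 3 higher, against 4.14% and 5.92% of all pairs.

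**Figure D1:**
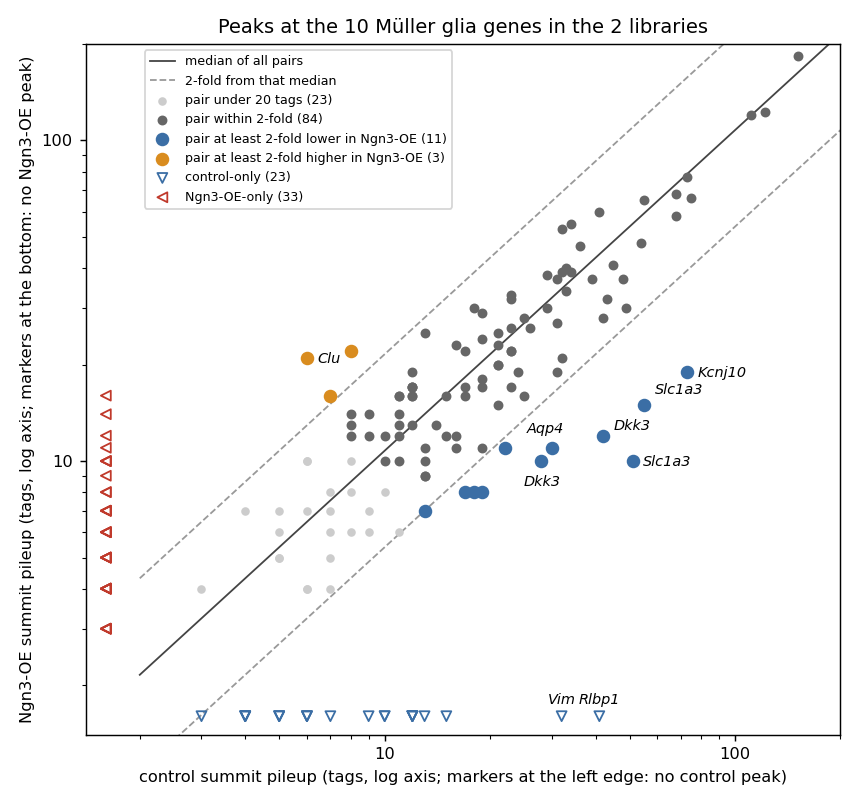
Summit pileup of each peak at the 10 genes in control (x axis, tags, log scale) and Ngn3-OE (y axis, tags, log scale); the solid line is the median ratio of all pairs, dashed lines are 2-fold from it, and open triangles at the edges are peaks called in 1 library. The 11 lower pairs (blue) lie under the lower dashed line, with Slc1a3, Kcnj10 and Dkk3 farthest from it, and 2 control-only peaks, at Vim and Rlbp1, lie at 32 and 41 tags.

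Strong peaks were also counted on their own. Of 32 pairs with at least 30 control tags, 5 were at least 2-fold lower, against 5.1% of all such pairs. Control peaks with at least 30 tags and no Ngn3-OE counterpart were rare, 12 of 15970 in the whole genome (0.0751%), and 2 of these 12 were among the 34 such strong peaks at the 10 genes. Whether the Ngn3-OE list used here is complete at these 2 places was not checked. In the other direction, 4 of 17067 Ngn3-OE peaks with at least 30 tags had no control counterpart (0.0234%), and none of them was among the 28 at these genes. The one-library peaks were otherwise weak. Control-only peaks at the 10 genes had a median of 7 tags (range 3 to 41) and Ngn3-OE-only peaks a median of 6 (range 3 to 16).

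The sequences below are shown because they carry the largest differences toward control at these genes: the 2 strong control-only peaks, which rest on the absence of an Ngn3-OE entry, and the 4 pairs with the lowest ratios. Each is the 201 bases centred on the control summit, plus strand of mm10 (RefSeq GRCm38), and capitals mark matches to the SOX motif CCATTGT or CCTTTGT on either strand. The windows are chr7:79388758-79388958 upstream of Rlbp1, chr2:13576122-13576322 in an intron of Vim, chr15:8659744-8659944 in an intron of Slc1a3, chr1:172349920-172350120 in an intron of Kcnj10, chr7:112170284-112170484 upstream of Dkk3, and chr15:8632425-8632625 downstream of Slc1a3.
Rlbp1 upstream: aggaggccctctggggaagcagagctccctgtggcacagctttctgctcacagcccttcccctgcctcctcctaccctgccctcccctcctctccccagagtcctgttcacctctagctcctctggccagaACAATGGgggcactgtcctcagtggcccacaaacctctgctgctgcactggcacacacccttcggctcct
Vim intron: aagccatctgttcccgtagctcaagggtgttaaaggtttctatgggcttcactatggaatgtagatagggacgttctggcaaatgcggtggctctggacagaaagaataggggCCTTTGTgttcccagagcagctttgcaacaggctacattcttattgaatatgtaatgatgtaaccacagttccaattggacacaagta
Slc1a3 intron: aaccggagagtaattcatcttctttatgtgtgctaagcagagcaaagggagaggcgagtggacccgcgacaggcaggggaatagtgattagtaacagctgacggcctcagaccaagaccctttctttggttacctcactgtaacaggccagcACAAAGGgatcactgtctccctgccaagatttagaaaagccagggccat
Kcnj10 intron: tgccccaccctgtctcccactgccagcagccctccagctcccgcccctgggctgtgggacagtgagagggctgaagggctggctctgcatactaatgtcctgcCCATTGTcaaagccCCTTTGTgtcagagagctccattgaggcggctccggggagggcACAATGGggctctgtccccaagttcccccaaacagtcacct
Dkk3 upstream: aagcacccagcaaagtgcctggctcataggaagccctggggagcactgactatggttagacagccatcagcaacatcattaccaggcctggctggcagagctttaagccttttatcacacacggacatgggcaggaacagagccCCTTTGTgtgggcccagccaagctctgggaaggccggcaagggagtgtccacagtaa
Slc1a3 downstream: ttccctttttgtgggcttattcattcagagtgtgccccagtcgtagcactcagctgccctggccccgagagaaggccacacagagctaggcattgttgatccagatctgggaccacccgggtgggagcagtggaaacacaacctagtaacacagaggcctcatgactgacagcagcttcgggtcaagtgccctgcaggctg
Of these 6 windows, 5 held a match and the Slc1a3 downstream window held none. The matches started 31 bases (Rlbp1), 13 bases (Vim), 52 bases (Slc1a3 intron) and 44 bases (Dkk3) to the right of the summit, and the Kcnj10 window held 3, at 3, 17 and 60 bases. Among all control peaks, 8.80% had such a match within 100 bp of the summit. The 6 windows were picked for their differences toward control, so this share is not their like: of all pairs at least 2-fold lower 24.4% had a match, 31.1% of those with at least 30 control tags and 22.1% of those with fewer. At the 10 genes the 6 lower pairs with fewer than 30 control tags held a match in 0 windows.

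Rlbp1 encodes CRALBP, the retinaldehyde-binding protein that carries chromophore in Müller glia and pigment epithelium. Its control-only peak at chr7:79388744-79388974, intergenic and 1810 bp upstream of the start site, had 41 tags and a −log10 q of 33.7 in control. The nearest Ngn3-OE summit was 1445 bp away. At the same background, 9 tags would have passed the lowest −log10 p in the Ngn3-OE list. The neighbouring peaks did not share this pattern: the start-site peak had 17 tags in control and 16 in Ngn3-OE, and a peak 3267 bp upstream had 36 and 47. Rlbp1 was the only gene of the 10 with more control-only than Ngn3-OE-only peaks (5 against 2), a property of 25.9% of protein-coding gene windows with at least 3 pairs. Of its 10 pairs, 3 were at least 2-fold lower. They had 22, 17 and 18 control tags against 11, 8 and 8, and all 3 lay downstream of Rlbp1 inside the neighbouring gene Abhd2. The interval of 1 of the 3 crossed 0 (log2 ratio −1.19, interval −2.62 to 0.0954), and those of the other two, the lowest at −1.28 (−2.69 to −0.0036), ended just below it.

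Slc1a3 encodes GLAST, the main glutamate transporter of Müller glia. At an intron peak, chr15:8659507-8659981, the pileup was 51 tags in control and 10 in Ngn3-OE (log2 −2.46, interval −3.60 to −1.46). This was the largest fall among the 98 pairs. A peak at chr15:8632358-8632687, intergenic and downstream of the gene, had 55 and 15 tags (log2 −1.98, −2.91 to −1.14). A peak 6451 bp upstream of the start site, with 13 and 7 tags, was only just past 2-fold (log2 −1.0, −2.57 to 0.43). These elements sat beside others that hardly differed. The start-site peak had 34 tags in control and 39 in Ngn3-OE, and the strongest downstream peak, chr15:8629326-8629757, had 68 in both. The gene had 19 control and 22 Ngn3-OE peaks, with 4 and 6 called in 1 library, none above a −log10 q of 7.61.

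Glul encodes glutamine synthetase, which turns the glutamate taken up by glia into glutamine. Its start site was the most open of the 10 genes, with 122 tags in control and 123 in Ngn3-OE. None of its 6 pairs passed 2-fold, although 4 were below 0 and their median log2 ratio was −0.37. The lowest pair, 298 bp inside the gene, had 31 and 19 tags (log2 −0.81, −1.72 to 0.06). The intervals of all 6 pairs included 0, and that of the lowest also reached past a 2-fold fall. They do not show that Glul was unchanged.

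Aqp4 encodes the water channel of Müller glial endfeet, and Kcnj10 encodes Kir4.1, the potassium channel placed beside it. The start-site peak of Aqp4 was the weakest of the 10 genes, with 5 tags in control, and was not called in Ngn3-OE. The largest difference lay 20876 bp upstream on chromosome 18 (15431804 to 15431985), where the pileup was 30 tags in control and 11 in Ngn3-OE (log2 −1.55, −2.70 to −0.52). An adjacent peak, 21136 bp upstream, had 25 and 16 tags (log2 −0.75, −1.75 to 0.21). In the opposite direction, an Ngn3-OE-only peak with 11 tags and a −log10 q of 10.7 was called in an Aqp4 intron, 1844 bp downstream of the nearest start site.

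Kcnj10 had the largest number of peaks, 26 in each library, with 5 one-library peaks on either side. Its intron peak at chr1:172349921-172350535, 8810 bp from the start site, had 73 tags in control and 19 in Ngn3-OE (log2 −2.05, −2.86 to −1.30). This is the window with 3 SOX matches shown above. A second intron peak, 14308 bp from the start, went the other way, with 8 tags in control and 22 in Ngn3-OE (log2 1.35, 0.13 to 2.73). The start-site peak had 75 and 66 tags. The 2 intron peaks lay in the same gene and differed in opposite directions, while the median of its 18 pairs was close to 0.

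**Figure D2:**
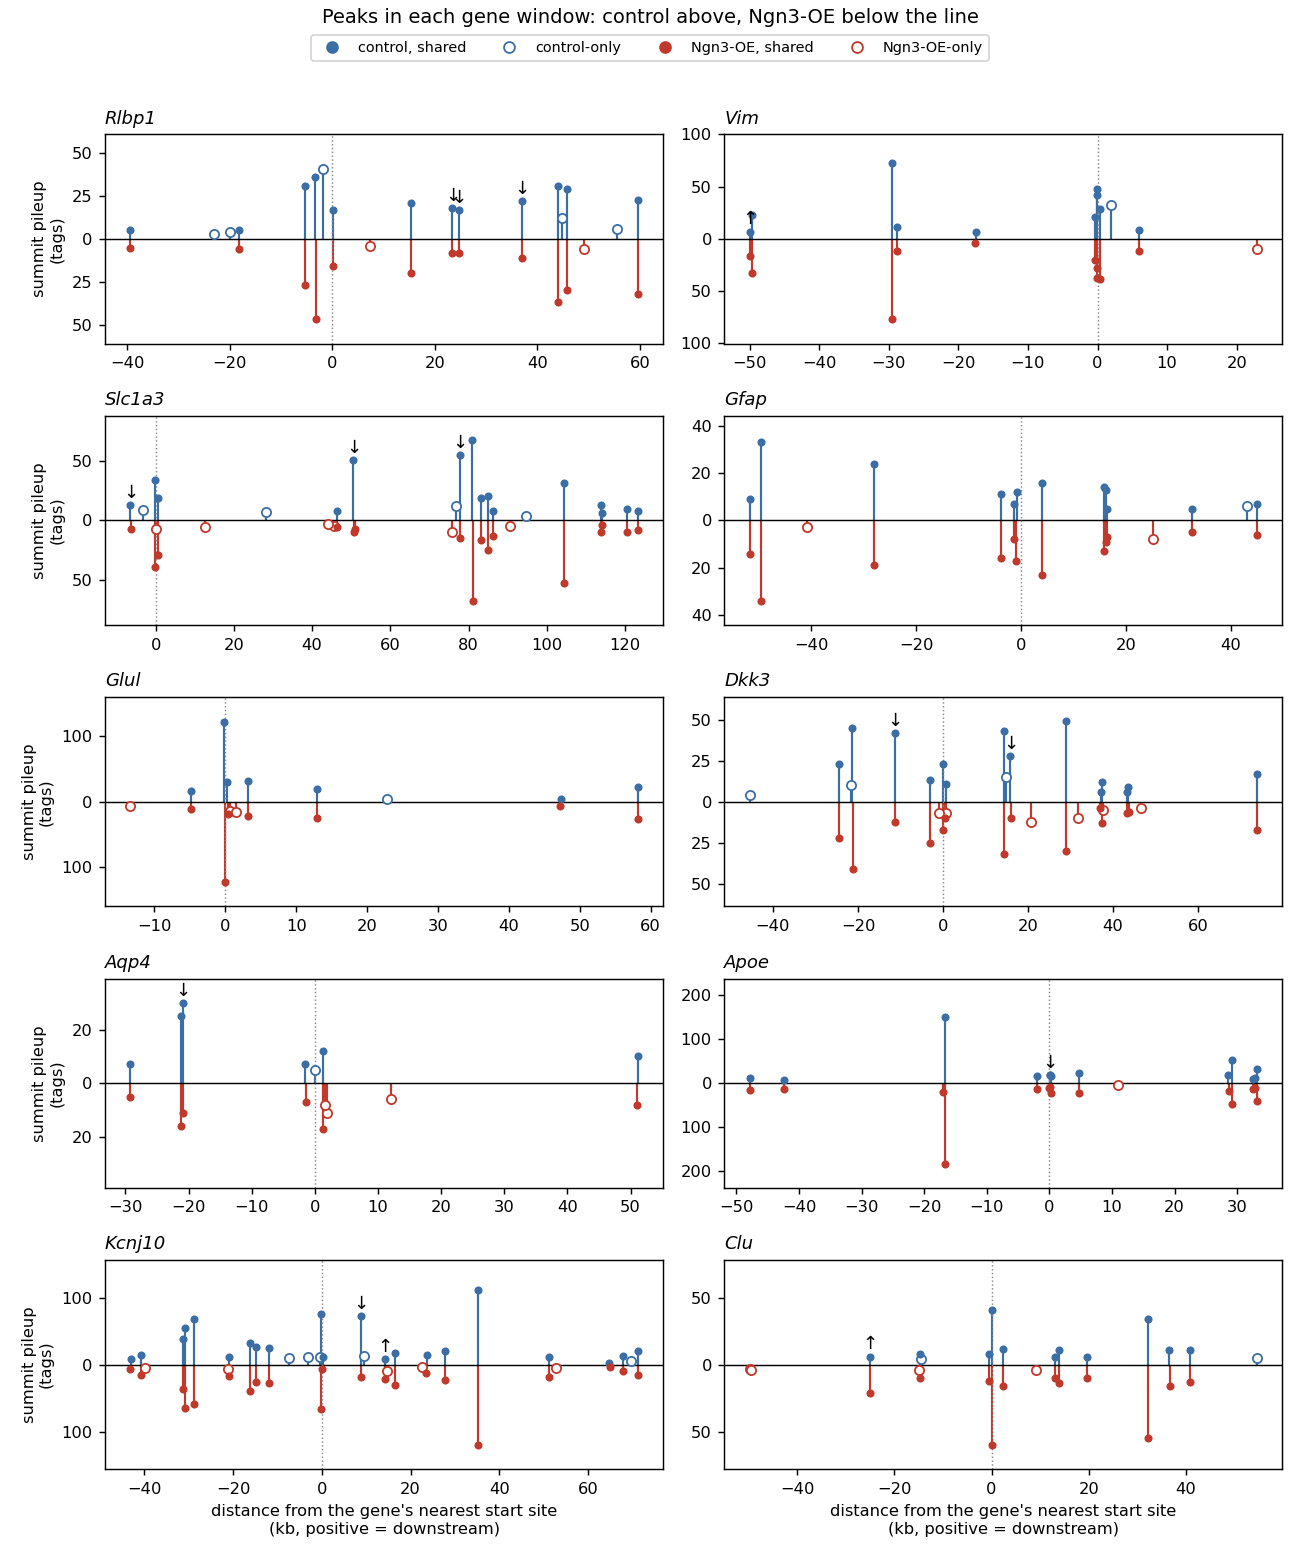
Summit pileup (tags) of every peak in the 10 gene windows against its distance in kb from the nearest start site of the gene, control above the line and Ngn3-OE below it; open circles are peaks called in 1 library and arrows mark pairs at least 2-fold lower or higher in Ngn3-OE. The Slc1a3, Kcnj10, Dkk3 and Aqp4 panels each hold a tall control peak with a short Ngn3-OE peak opposite it.

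Vim and Gfap encode intermediate filament proteins. Vimentin is made by RPCs as well as by Müller glia, whereas GFAP marks astrocytes and reactive Müller glia. In a Vim intron, 1941 bp downstream of the nearest start site, a control-only peak at chr2:13576149-13576338 had 32 tags and a −log10 q of 20.1. The nearest Ngn3-OE summit was 1655 bp away, and 10 tags would have sufficed for a call at the same background. The start-site peak of Vim had 48 tags in control and 37 in Ngn3-OE (log2 −0.48, −1.14 to 0.17). Vim also had the strongest Ngn3-OE-only peak of the 10 genes by −log10 q (11.5, 10 tags), 22937 bp downstream of the nearest start site and with 3 SOX matches. One pair far upstream, in an intron of Trdmt1, had 7 and 16 tags (log2 1.09, −0.28 to 2.61). At Gfap no pair passed 2-fold among 8. A peak 790 bp upstream of the nearest basic-set start site had 12 tags in control and 17 in Ngn3-OE. Another, 3774 bp upstream of that site and at the outer end of the annotated gene, had 11 and 16. The median log2 ratio was 0.17.

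Dkk3, Apoe and Clu encode secreted proteins, a member of the Dickkopf family, apolipoprotein E and clusterin. Dkk3 had 2 lower pairs, where Slc1a3 and Rlbp1 had 3 each. A peak at chr7:112170253-112170589, 11327 bp upstream, had 42 tags in control and 12 in Ngn3-OE (log2 −1.91, −2.98 to −0.96). An intron peak 15858 bp inside the gene had 28 and 10 (log2 −1.59, −2.80 to −0.51). A further intron peak with 49 and 30 tags stayed within 2-fold, but its interval lay below 0 (log2 −0.81, −1.52 to −0.13). The start-site peak had 23 and 17 tags. The strongest of 6 Ngn3-OE-only peaks at Dkk3 had 12 tags and a −log10 q of 11.3, in an intron 20689 bp from the start.

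Apoe had no control-only peak and 1 Ngn3-OE-only peak, of 3 tags. One of its 3 peaks at the start sites of its transcripts had 19 tags in control and 8 in Ngn3-OE (log2 −1.35, −2.76 to −0.10), another had 19 and 11 and the third had 17 and 22. The start region of Apoe therefore held the only start-site peak of the 10 genes that was past 2-fold. All 13 Apoe control peaks were shared, and most of its stronger peaks lay at neighbouring genes.

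Clu differed from the other 9 genes in that all 8 of its pairs were above 0, with a median log2 ratio of 0.44. Its start-site peak had 41 tags in control and 60 in Ngn3-OE (log2 0.44, −0.15 to 1.05). A peak at chr14:65943349-65943609, 25030 bp upstream in an intron of Scara3, had 6 and 21 tags (log2 1.70, 0.34 to 3.30), the largest rise among the 98 pairs. The 201 bases around its summit, chr14:65943353-65943553, are shown with matches to the OTX motif GGATTA, here as its reverse complement, in capitals. This motif, the site of CRX and OTX2, was picked after the value of the peak was seen.
Clu upstream: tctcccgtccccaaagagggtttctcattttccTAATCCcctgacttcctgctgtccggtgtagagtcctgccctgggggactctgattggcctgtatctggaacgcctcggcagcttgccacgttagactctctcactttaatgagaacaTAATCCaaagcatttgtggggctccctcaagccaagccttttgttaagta
Matches lay at 67 bases to the left and 51 bases to the right of the summit. Among all pairs, 26.4% of those at least 2-fold higher and 5.09% of those at least 2-fold lower had such a match.

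**Figure D3:**
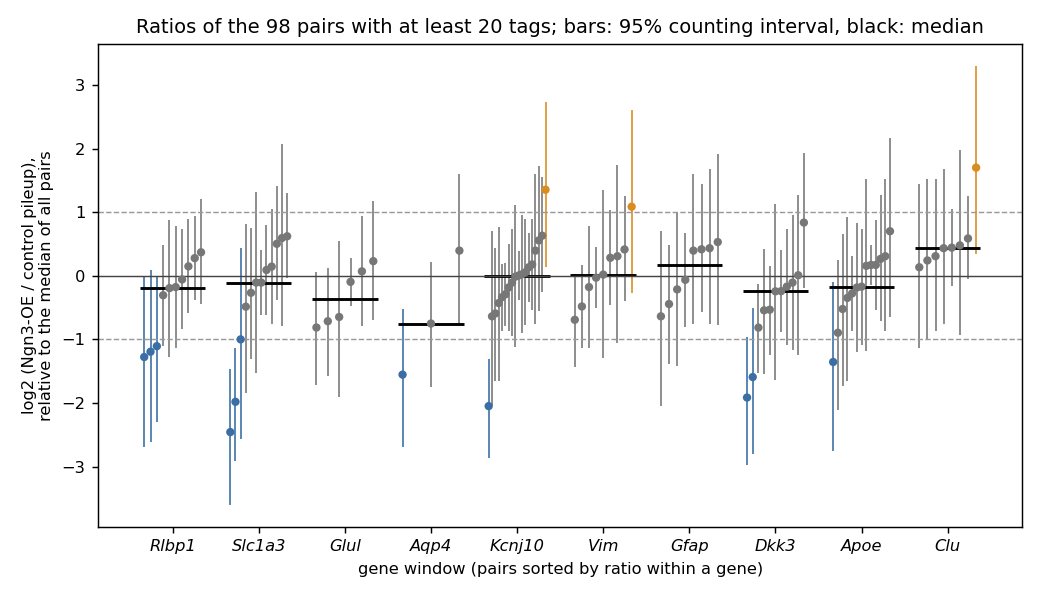
Log2 ratio of Ngn3-OE to control pileup for the 98 pairs with at least 20 tags, grouped by gene; points are pairs, thin bars are 95% counting intervals, black lines are medians and dashed lines are 2-fold. Slc1a3, Kcnj10 and Dkk3 hold the pairs near or below −2, and every Clu point is above 0.

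Across the 10 genes the lower pairs were mostly distal, as were those of all peaks (2558 of 3184). The strong control-only peaks at Rlbp1 and Vim lay within 3 kb of a start site and, having no partner, are not counted here. Within 3 kb of any annotated start site, 2 of 51 pairs were at least 2-fold lower (3.92%), against 2.5% of all such pairs. Farther away, 9 of 47 were lower (19.1%), against 8.53% of all distal pairs. By position relative to the gene, 4 of the 11 lay in the body of their gene, 3 upstream and 4 downstream, where the 144 control peaks had 38, 53 and 53. The nearest protein-coding start site was that of the glial gene for all 11, and for 75 of the 144 control peaks (52.1%). The 144 also include weak and unpaired peaks, so these shares are not like for like. At least 1 lower pair was found at 6 of the 10 genes, against 22.8% of 15490 protein-coding gene windows with at least 3 pairs. At least 2 lower pairs were found at 3 genes (Rlbp1, Slc1a3 and Dkk3), against 5.18% of those windows. A window with more pairs has more room for a lower one. The windows were not matched for this, and the 10 genes had from 3 pairs (Aqp4) to 18 (Kcnj10).

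SOX motifs, the sites of a transcription factor family active in progenitors and glia, were counted within 100 bp of the control summits. At the 10 genes 16 of 144 control peaks had a match (11.1%, 6.96 to 17.3), against 8.80% of all control peaks. It was found in 4 of the 11 lower pairs (36.4%, 15.2 to 64.6) and in 7 of the 84 pairs within 2-fold (8.33%, 4.10 to 16.2), and this difference was not tested. With the core ATTGT in place of the motif the counts were 3 of 11 (27.3%, 9.75 to 56.6) and 15 of 84 (17.9%, 11.1 to 27.4), beside 46.6% and 19.2% over all pairs. For the full motif the shares over all pairs were 24.4% of lower pairs and 6.53% of pairs within 2-fold. Read in the other direction, 4 of the 11 SOX-bearing pairs at the 10 genes were lower, against 18.8% of all SOX-bearing pairs. All 4 were distal, out of 8 distal SOX-bearing pairs, against 23.3% of all pairs of that kind. The core E-box CATCTG, a basic helix-loop-helix site of the kind Neurog3 binds, was found in 12 of 33 Ngn3-OE-only peaks (36.4%, 22.2 to 53.4) at the 10 genes and in 25.3% of all Ngn3-OE-only peaks. The SOX motif was not limited to peaks that were lower: it was found in 5 of 33 Ngn3-OE-only peaks at the 10 genes (15.2%, 6.65 to 30.9), against 6.64% of all Ngn3-OE-only peaks, and in 4 of 23 control-only peaks (17.4%, 6.98 to 37.1), against 12.3% of all control-only peaks. These matches are letters in a window and do not show which factor was bound.

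**Figure D4:**
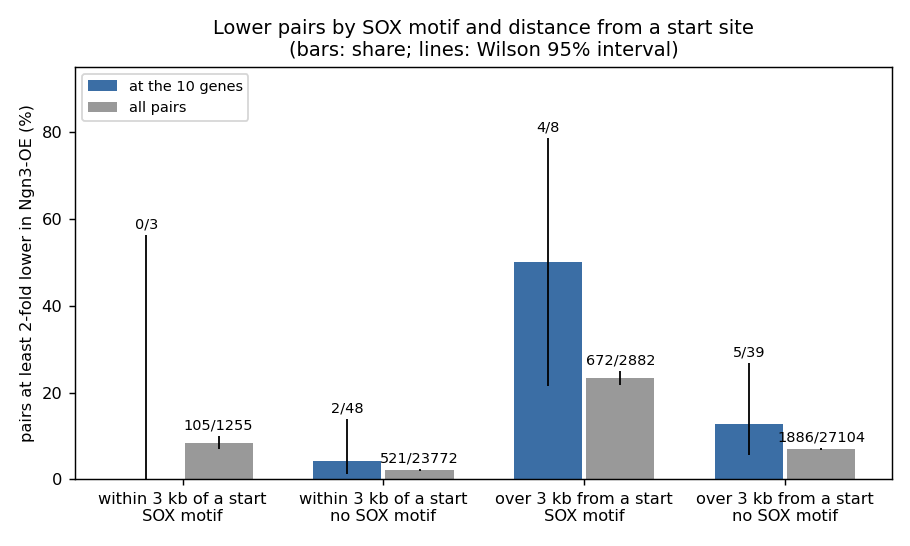
Share of pairs at least 2-fold lower in Ngn3-OE (percent, bars from 0) by distance from a start site and presence of a SOX motif, at the 10 genes (blue) and over all pairs (grey); lines are Wilson 95% intervals and the counts stand above them. The highest bars in both colours are the distal pairs with a SOX motif, 4 of 8 and 672 of 2882.

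Other gene lists put these counts in context. The 24 other Müller glia genes, none of whose windows shared a peak with the 10, had 215 pairs, of which 23 were at least 2-fold lower (10.7%, 7.24 to 15.5) and 3 were higher. Their lowest pairs were at Ptn (log2 −2.43), a secreted growth factor, Abca8a (−2.28), a lipid transporter, Sox8 (−2.26), a glial transcription factor, and Nfix (−2.17), a nuclear factor I gene with 5 lower pairs. The 12 progenitor genes, a list that includes Pax6 and Notch1, also had more lower than higher pairs, with 13 of 124 pairs lower (10.5%, 6.23 to 17.1) and 4 higher. The 10 rod genes, such as Nrl and Crx, showed the reverse, with 3 of 105 lower and 10 higher (9.52%, 5.26 to 16.7). The 10 bipolar genes had 3 of 66 lower and 1 higher, the 6 microglia genes 0 of 46 in either direction, the 5 endothelial genes 1 of 23 lower, and the 3 astrocyte genes 1 of 13 higher. No difference between lists was tested.

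**Figure D5:**
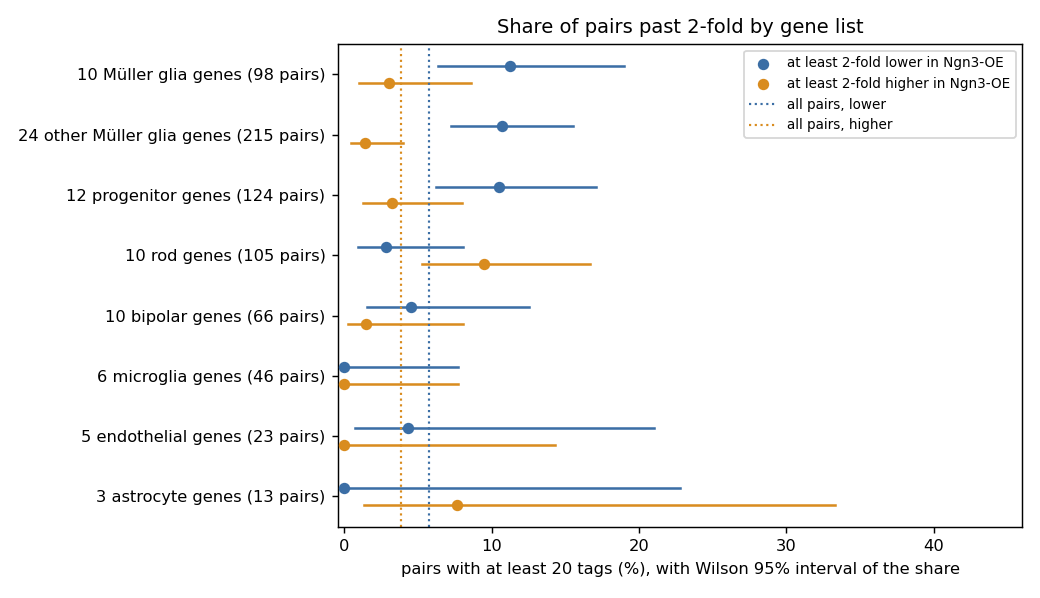
Share of pairs at least 2-fold lower (blue) or higher (orange) in Ngn3-OE for 8 gene lists, in percent with Wilson 95% intervals; dotted lines are the shares over all pairs. The 2 Müller glia lists and the progenitor list lie to the right of the blue dotted line for lower pairs. The rod list lies to the right of the orange line for higher pairs, as does the astrocyte list with 1 of 13 pairs.

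Start-site peaks of marker lists were also counted. All 12 progenitor genes had a start-site peak in both libraries, with medians of 41.5 tags in control and 31 in Ngn3-OE. The 10 Müller glia genes had start-site peaks at 10 genes in control and 9 in Ngn3-OE, the one without being Aqp4. At the 9 genes with one in both libraries the strongest such peak, not always the same peak, had a median of 34 tags in control and 38 in Ngn3-OE. Of cell types that could accompany the sorted cells, 2 of 6 microglia genes had a start-site peak in each library, of 8 to 18 tags in control and 7 to 26 in Ngn3-OE. Endothelial genes had one at 3 of 5 genes in control and 2 in Ngn3-OE, of 4 to 10 tags. Astrocyte genes had one at 2 of 3 genes in each library, of 6 to 35 tags in control and 4 to 23 in Ngn3-OE. Rod genes had start-site peaks at 8 of 10 genes in both libraries, with medians of 11.5 tags in control and 23.5 in Ngn3-OE. Cell makeup was not measured, and its part in the differences at the 10 genes was not tested.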

How the data were processed

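The authors trimmed the reads with Trimmomatic, aligned them to mm10 with Bowtie2, removed duplicates (Picard), mitochondrial reads (SAMtools) and blacklisted regions (bedtools), kept short fragments, shifted read ends for the Tn5 cut with deepTools and called peaks in each library with MACS2. Each peak in the deposited lists has a whole-number score, a ratio of its summit signal to local background (fold enrichment), and the −log10 of the p-value and q-value. They are not normalized between libraries.

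Equal intervals were merged, and peaks overlapping by at least 1 bp were called shared. Whole-number pileups and backgrounds were solved from the fold enrichment and −log10 p of the deposited lists (100% whole within 0.002 of −log10 p), after a check on simulated data. For 6807 control and 2821 Ngn3-OE peaks more than 1 whole number met the tolerance of 0.005. The extension of the tags behind the pileups is not given in the sources used here. Read totals are unknown, so pileups set the precision: the median peak had 9 tags in both libraries. Pair ratios carry exact binomial 95% intervals and shares Wilson 95% intervals. Python 3.11.15, scipy 1.17.1 and pandas 2.3.3 were used. Motifs were counted on both strands.

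For each gene the text names the strongest peak within 1 kb of a start site, the strongest one-library peaks and the pairs with the largest fall and rise; other pairs were named after their values were seen. From other lists the genes with the largest falls were named. The members, lists, thresholds and motifs were chosen with earlier results of these data known. The alternatives tried are other windows, thresholds, pairings, scalings and motif windows. The authors' differential regions and their RNA-seq were not used here.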

Additional observations from a re-analysis of the deposited data

How the results depend on the processing

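No paired analysis was possible because each group had 1 library, and for the same reason no library could be left out. With 10 kb flanks there were 11 control-only and 21 Ngn3-OE-only peaks, 6 lower pairs and 1 higher pair, and with 100 kb flanks 42, 50, 12 and 7. Among peaks nearest to a start site of the 10 genes there were 14 control-only and 20 Ngn3-OE-only peaks, and 11 lower and 1 higher pair. Over all peaks, 21.7% were control-only and 26.6% Ngn3-OE-only, and over all pairs 5.79% were lower and 3.84% higher. The numbers of peaks and pairs kept under these window settings are not given here, so their shares cannot be compared. From 50 to 100 kb flanks, lower pairs went from 11 to 12 and higher pairs from 3 to 7. Requiring a −log10 q of 5 or more in both lists gave 16 control-only and 19 Ngn3-OE-only peaks (14.6% and 16.8% of those kept at the 10 genes, 18.3% and 23.0% over all peaks kept), and 8 lower pairs and 1 higher pair (4.55% and 2.97% of all pairs). Among the top 50000 peaks of each list there were 17 control-only and 14 Ngn3-OE-only peaks, the reverse order of the main counts (20.5% and 17.5%, against 19.8% and 19.8% over all peaks kept). A peak also becomes one-library here when its partner is filtered out. A 1.5-fold limit gave 21 lower and 9 higher pairs, against 13.8% and 13.5% of all pairs. Ratios of the authors' fold enrichments gave 7 lower and 2 higher pairs, against 3.03% and 2.66% of all pairs. The SOX share of control peaks was 6.25% with a window reaching 50 bp from the summit, 20.1% with 250 bp and 22.2% for the core ATTGT. For the fold enrichments the cause of the change was not tested.

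The median log2 ratio at the 10 genes changed sign, from −0.08 to 0.05, when the libraries were scaled by their lowest backgrounds, which moved all pairs by 0.13. Without each of the 10 genes in turn there were 8 to 11 lower and 2 to 3 higher pairs. Depth limits single pairs: 10 of 98 had an interval wholly below 0 and 2 wholly above, against 5.3% and 3.47% of all pairs.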
